A study of Mus musculus with 4 samples.

Results

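The genes described here encode ankyrin repeat, LIM domain and Xin repeat proteins of striated muscle that are known to respond to stretch or load, together with an actin regulator and a kinase of NAD synthesis. Of 10 symbols chosen by name (Ankrd1, Ankrd2, Ankrd23, Csrp3, Fhl1, Fhl2, Xirp1, Xirp2, Enah and Nmrk2), 8 had a probe in the platform's annotation, out of 16390 genes with a named probe. Each of the 8 had 1 probe. Xirp2 was listed under its older symbol Cmya3 and Nmrk2 under Itgb1bp3. Ankrd23 and Xirp1 matched no probe under a current or older symbol and were not analysed here. The array covered left ventricular RNA of male C57BL/6 mice in 4 groups, with 1 array per group: wild type (WT) after a sham operation, WT after transverse aortic constriction (TAC), STIM1KO after sham and STIM1KO after TAC. TAC ties the aortic arch around a wire of 0.3 mm and loads the left ventricle with pressure. Mice were operated on at 10 weeks of age and hearts were taken 4 weeks later, at 14 weeks. The labels call the second genotype STIM1 KO, without naming the allele, and do not say whether RNA was pooled. The labels give an average ratio of heart to body weight, without a unit, of 4.1 (sham) and 6.7 (TAC) for WT, and of 4.5 (sham) and 4.9 (TAC) for STIM1KO. With 1 array per group there is no spread between animals, so every difference below is a description of 4 arrays, and no test was run.

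Muscle cells sense stretch at the Z-disc, along the titin filament and at the intercalated disc, the junction between cardiomyocytes. Ankrd1, Ankrd2 and Ankrd23 form a family of ankyrin repeat proteins that bind the spring region of titin and also enter the nucleus. Csrp3 and Fhl2 are LIM domain proteins of the Z-disc and sarcomere that bind both structural and signalling partners, and Fhl1 is a related LIM protein at the titin spring. Xirp1 and Xirp2 bind actin at the intercalated disc, where the Ena/VASP protein encoded by Enah promotes actin filament growth. Several of these genes, Ankrd1 among them, are widely used as markers of mechanical load on the heart.

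The stretches upstream of 5 members are shown because these genes had the widest spans over the arrays, or, for Fhl2, the narrowest. Each line gives the 250 bases before an annotated start, 5′ to 3′ on the gene's strand, from RefSeq's promoter set on GRCm38.p6. For Csrp3, Fhl1 and Fhl2 the set held another start, which is not shown. Capitals mark matches, on either strand, to the MCAT element bound by TEAD factors (CATTCC), the GATA core (GATA), the CArG box bound by serum response factor, or the MEF2 site. Ankrd1 lies at chr19:36119845-36120094 on the minus strand, Csrp3 at chr7:48848052-48848301 on the minus strand and Fhl1 at chrX:56779433-56779682 on the plus strand. Fhl2 lies at chr1:43196762-43197011 on the minus strand and Xirp2 at chr2:67445752-67446001 on the plus strand.
Ankrd1: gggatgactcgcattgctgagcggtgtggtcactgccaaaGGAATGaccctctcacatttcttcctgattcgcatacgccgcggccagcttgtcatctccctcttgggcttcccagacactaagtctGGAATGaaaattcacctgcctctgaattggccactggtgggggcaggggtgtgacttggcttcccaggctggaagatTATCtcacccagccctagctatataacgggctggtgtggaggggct
Csrp3: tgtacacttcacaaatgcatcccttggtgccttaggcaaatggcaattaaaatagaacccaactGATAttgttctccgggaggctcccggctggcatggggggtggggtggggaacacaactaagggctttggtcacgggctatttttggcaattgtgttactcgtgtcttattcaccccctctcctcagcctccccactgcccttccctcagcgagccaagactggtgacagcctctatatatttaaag
Fhl1: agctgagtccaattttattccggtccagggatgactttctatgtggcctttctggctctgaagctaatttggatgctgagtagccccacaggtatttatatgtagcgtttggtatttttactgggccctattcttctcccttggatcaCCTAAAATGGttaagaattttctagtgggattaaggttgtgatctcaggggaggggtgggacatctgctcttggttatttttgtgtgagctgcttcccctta
Fhl2: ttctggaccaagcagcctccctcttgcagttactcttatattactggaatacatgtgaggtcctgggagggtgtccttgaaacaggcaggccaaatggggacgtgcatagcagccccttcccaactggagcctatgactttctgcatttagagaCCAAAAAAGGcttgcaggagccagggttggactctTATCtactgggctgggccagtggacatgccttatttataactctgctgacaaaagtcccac
Xirp2: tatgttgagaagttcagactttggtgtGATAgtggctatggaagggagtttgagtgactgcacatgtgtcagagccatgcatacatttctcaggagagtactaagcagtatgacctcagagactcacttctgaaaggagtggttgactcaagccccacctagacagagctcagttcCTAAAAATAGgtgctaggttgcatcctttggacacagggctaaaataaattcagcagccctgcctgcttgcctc
The capitals mark a pair of MCAT elements in Ankrd1, on the reverse strand with first bases at -210 and -123, and a reverse GATA core at -46. Csrp3 held a GATA core at -186, and its start not shown held cores at -96 and, in reverse, at -82. Fhl1 held a CArG box at -102, and Fhl2 held a CArG box at -96 and a reverse GATA core at -61. Xirp2 held a MEF2 site at -74 and a GATA core at -223.

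The RefSeq set held 13 starts for 9 of the 10 members, Xirp1 being the one without an entry. A CArG box lay upstream of 3 of the 13 starts, 1 of Fhl1 and both of Fhl2, against 1.47% of all 32851 promoters. The MCAT element lay upstream of 2 starts, that of Ankrd1 and 1 of Ankrd23, against 12.6% of all promoters. The MEF2 site was found at 1 start, that of Xirp2, against 0.508%. The GATA core lay at 6 of 13 starts and in 53.6% of all promoters, and the E-box (CANNTG) at 11 and in 66.2%. The core of the NFAT site (GGAAA) lay at 4 starts and in 55.6%, and the TATA box (TATAAA) at 4 and in 12.4%. The capitals do not overlap each other, but an E-box of Csrp3 starting at -191 shares its last base with the GATA core at -186. A match describes letters in the window and does not show binding, and the array does not tell which start was used.

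Intensities below were quantile normalized between the arrays, and a difference is one of log2 intensities, so that 1 is 2-fold. For shares over many genes, 7020 genes were kept: those measured on every array whose log2 intensity averaged at least 4.87. Of the 8 measured members 7 passed this level, and Ankrd2 was dimmer. No member had an empty cell. The SD of log2 differences over the 7020 genes was 0.25 for TAC against sham in WT and 0.29 between the sham arrays. It was 0.42 in both comparisons that use the STIM1KO TAC array. The probe of Stim1, the endoplasmic reticulum calcium sensor named in the genotype, gave 41.6 (sham) and 33.9 (TAC) with WT RNA, and 20.7 (sham) and 13.8 (TAC) with STIM1KO RNA. Its signal was lower on both STIM1KO arrays, where it lay below the intensity of 29.3 that matches the filter level. The labels do not name the background correction, so whether any Stim1 RNA remained cannot be told. The position of the probe in Stim1 was not analysed here.

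No measured member reached 2-fold in any of the 4 comparisons of arrays. The largest of the 32 differences was that of Ankrd1 between TAC and sham in STIM1KO. Of the 7020 genes, 0.313% stood at 2-fold when WT TAC was set against WT sham, and 1.85% when STIM1KO TAC was set against STIM1KO sham. The share was 0.556% between the sham arrays and 1.97% between the TAC arrays. At 1.5-fold stood 0 of the 7 members in the WT response, against 2.85% of all genes. In the STIM1KO response 1 of 7, Ankrd1, was past 1.5-fold, against 14.4%, and 7.11% of all genes were lower by that much. Between the sham arrays 1 of 7, Xirp2, was past it, against 3.96%, and 1.23% of all genes were higher by that much. Between the TAC arrays 3 of 7 were past it, against 14.5%, with Fhl1 higher and Ankrd1 and Enah lower in STIM1KO. Of all genes 6.31% were that much higher there and 8.22% that much lower.

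**Figure D1:**
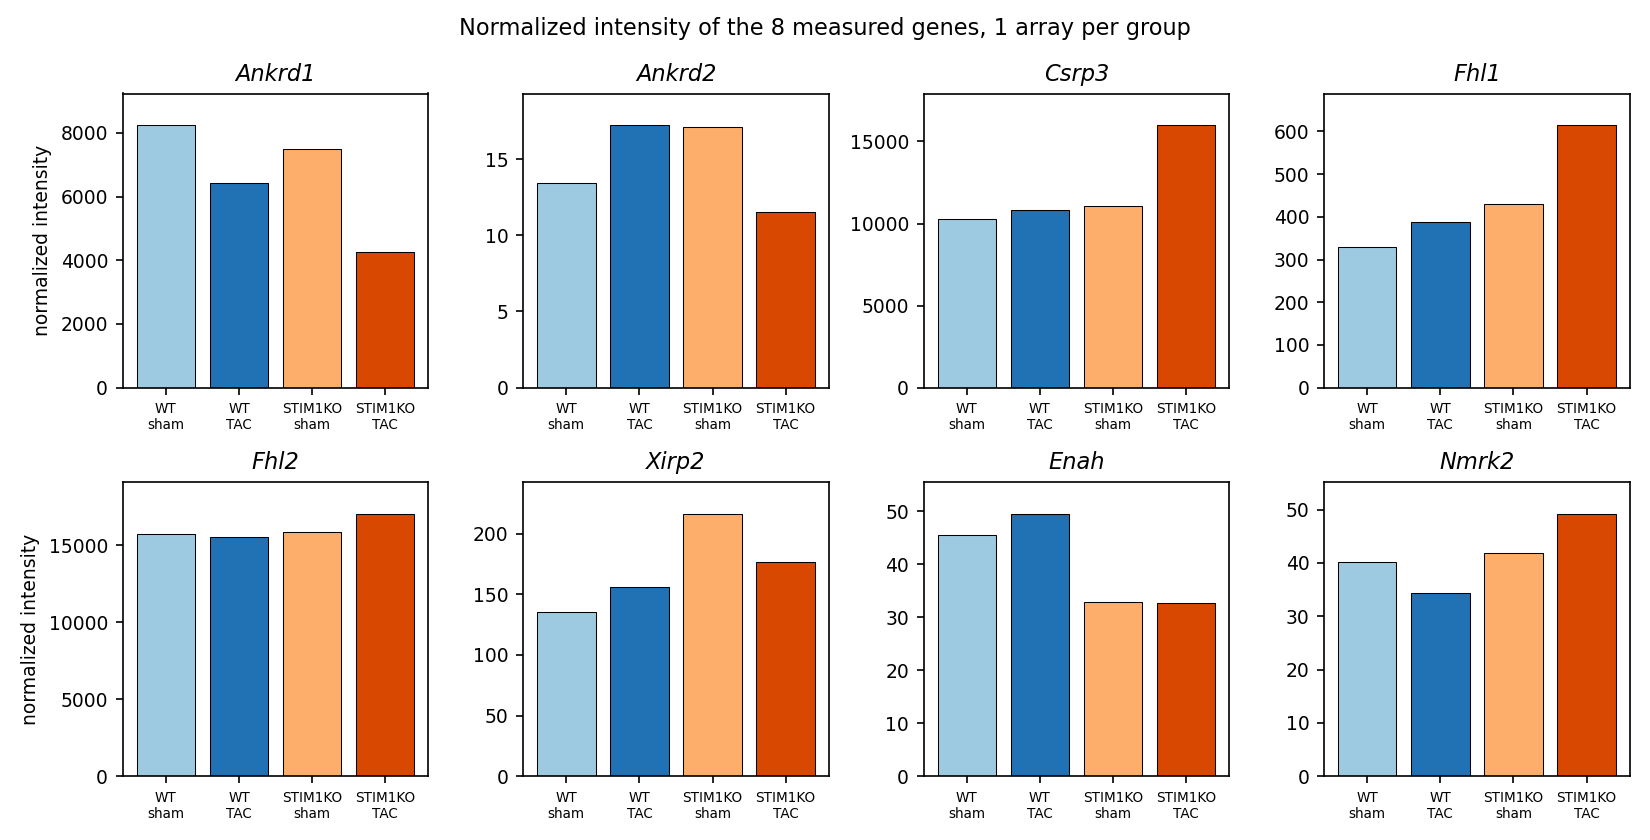
Normalized linear intensity (vertical axis, from 0, a separate scale in each panel) of the 8 measured members on the 4 arrays, 1 bar per array and no error bars because each group is 1 array. Ankrd1 is lowest on STIM1KO TAC at 4267, Csrp3 and Fhl1 are highest there at 16005 and 615, and Fhl2 stays between 15537 and 17056.

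Ankrd1, the cardiac ankyrin repeat protein that binds titin and acts in the nucleus as a transcriptional cofactor, was lower after TAC in both genotypes. Its intensity on the WT arrays was 8246 after sham and 6415 after TAC, and on the STIM1KO arrays 7483 after sham and 4267 after TAC. WT sham was the highest array and STIM1KO TAC the lowest. The log2 difference between TAC and sham was -0.36 in WT, a ratio of 0.778, and -0.81 in STIM1KO, a ratio of 0.570. Among the 7020 genes these were the 451st and the 134th lowest values. STIM1KO differed from WT by -0.14 after sham and by -0.59 after TAC. The TAC difference thus lay just past 1.5-fold. Ankrd1 was bright on every array, with 111 to 238 probes above it.

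Ankrd2, the family member most typical of slow skeletal muscle, gave a dim signal. Its intensity after sham was 13.5 (WT) and 17.1 (STIM1KO), and after TAC 17.2 (WT) and 11.5 (STIM1KO). All 4 values lay below the median of the deposited values of their array. WT TAC and STIM1KO sham were nearly equal at the top, and STIM1KO TAC was the lowest. The difference between TAC and sham was 0.36 in WT and -0.56 in STIM1KO, and that between genotypes 0.34 after sham and -0.58 after TAC. With 5.49 intensity units added before log2, the values that include STIM1KO TAC shrank to -0.41 and -0.42. Of 10 markers typical of skeletal muscle, 7 had values on all arrays and 2 passed the filter. The summed intensity of the 7 ran from 153 in WT TAC to 173 in STIM1KO TAC. The list holds mostly genes of fast fibres, so its sum is no measure of slow muscle.

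The LIM domain members Csrp3, Fhl1 and, by a small margin, Fhl2 were highest on the array where Ankrd1 was lowest, as was Nmrk2. Csrp3, the muscle LIM protein of the Z-disc, had a WT intensity of 10250 after sham and 10839 after TAC, and a STIM1KO intensity of 11094 and 16005. The first 3 arrays lay close together, within 0.11 on the log2 scale, and STIM1KO TAC stood above them. Its difference between TAC and sham was 0.08 in WT and 0.53 in STIM1KO, a ratio of 1.44. Between genotypes it was 0.11 after sham and 0.56 after TAC, the 495th highest value of 7020.

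Fhl1, a four-and-a-half LIM protein that binds titin and relays hypertrophic signalling, followed the same order of arrays. Its intensity on the WT arrays was 330.4 after sham and 388 after TAC, and on the STIM1KO arrays 430 after sham and 615 after TAC. Each TAC array was above the sham array of its genotype and each STIM1KO array above the WT array of the same operation. The difference between TAC and sham was 0.23 in WT and 0.52 in STIM1KO, and that between genotypes 0.38 after sham and 0.66 after TAC. The last, a ratio of 1.58, was the 297th highest of 7020. It fell short of 1.5-fold, at 0.57 and 0.58, when arrays were median centred or left as deposited.

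Fhl2, the most heart-typical of the four-and-a-half LIM proteins and a binding partner of titin and of signalling enzymes, was nearly level. Its intensity after sham was 15712 (WT) and 15832 (STIM1KO), and after TAC 15537 (WT) and 17056 (STIM1KO). The 4 arrays spanned 0.13 on the log2 scale, the narrowest span of the 8 members. The difference between TAC and sham was -0.02 in WT and 0.11 in STIM1KO, and the WT value turned to 0.08 with the values as deposited and to 0.04 with median centring. Between genotypes it was 0.01 after sham and 0.13 after TAC. Only 38 to 46 probes were brighter on any array, while the brightest probe of each array reached at least 62746.

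Xirp2, the Xin repeat protein that ties actin to the intercalated disc, was higher on the STIM1KO arrays, most of all after sham. Its intensity on the WT arrays was 136 after sham and 156 after TAC, and on the STIM1KO arrays 217 after sham and 176 after TAC. WT sham was the lowest array and STIM1KO sham the highest. STIM1KO exceeded WT by 0.68 after sham, a ratio of 1.60 and the 47th highest value of 7020, and by 0.18 after TAC. TAC against sham gave 0.20 for WT and -0.30 for STIM1KO.

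Enah, which encodes the actin regulator Mena, was lower on both STIM1KO arrays. Its intensity after sham was 45.4 (WT) and 32.9 (STIM1KO), and after TAC 49.6 (WT) and 32.7 (STIM1KO). These values lie not far above the filter level of 29.3, with 7151 to 8764 probes brighter. WT TAC was the highest array, and the pair of STIM1KO arrays differed by -0.01. STIM1KO differed from WT by -0.47 after sham, the 360th lowest value of 7020, and by -0.60 after TAC, the 541st lowest, which was -0.53 and short of 1.5-fold with the offset. These comparisons share no array. The response to TAC was 0.13 in WT, and the STIM1KO value of -0.01 was 0.09 with the values as deposited.

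Nmrk2 phosphorylates nicotinamide riboside, a precursor of NAD, and its product is also known as a muscle protein that binds an integrin. Its intensity on the WT arrays was 40.2 after sham and 34.4 after TAC, and on the STIM1KO arrays 41.8 after sham and 49.3 after TAC. Like Enah it was not far above the filter level of 29.3, with 7172 to 8555 probes brighter. WT TAC was the lowest array and STIM1KO TAC the highest, with the sham arrays between them 0.06 apart on the log2 scale. The difference between TAC and sham was -0.22 in WT and 0.24 in STIM1KO, and that between the TAC arrays 0.52, a ratio of 1.43.

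**Figure D2:**
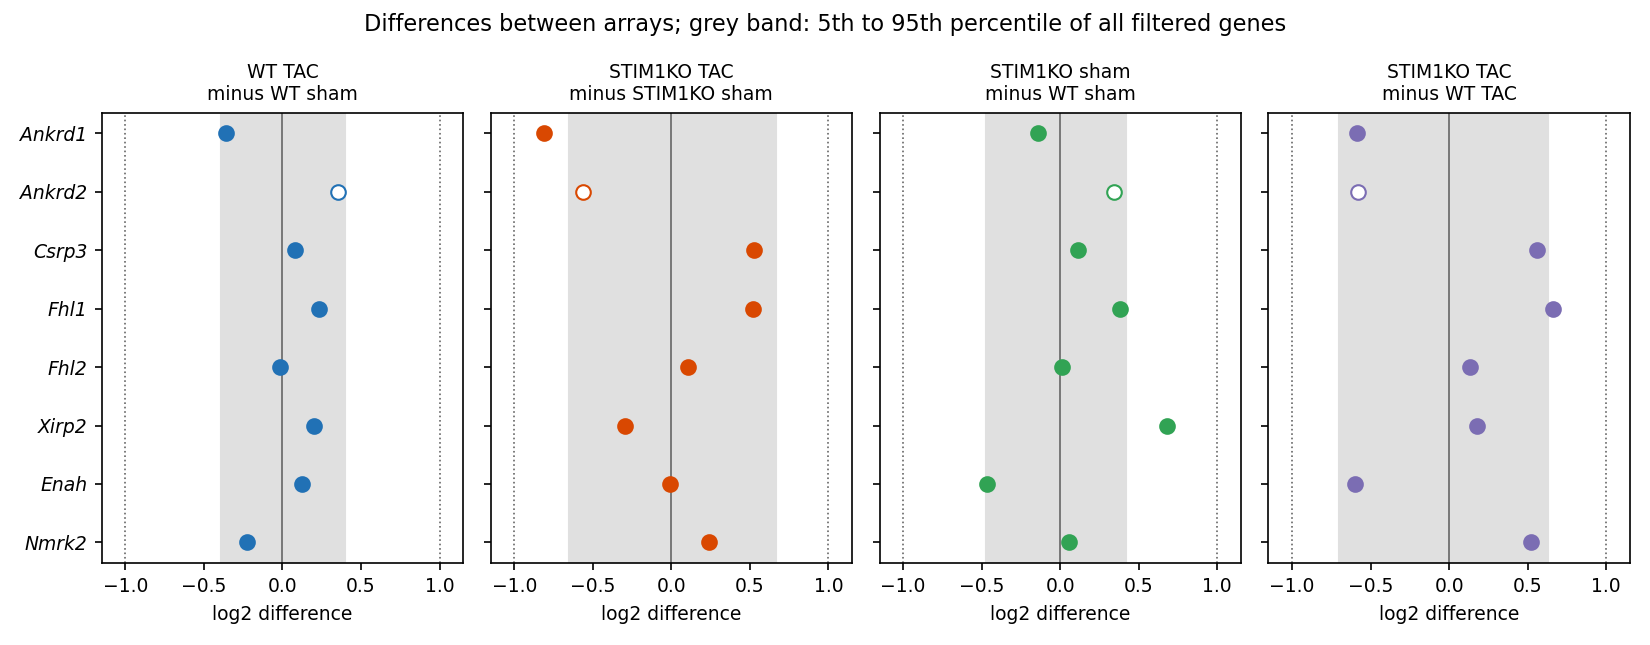
Log2 differences between arrays (horizontal axis) for the 8 measured members in the 4 comparisons; filled points passed the level filter and the open point, Ankrd2, did not. The grey band spans the 5th to 95th percentile of the 7020 genes and dotted lines mark 2-fold. Outside the band lie Ankrd1 in the STIM1KO response at -0.81, Xirp2 between the sham arrays at 0.68 and Fhl1 between the TAC arrays at 0.66.

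Over the 7 members passing the filter, the median difference between TAC and sham was 0.08 in WT, with 4 above 0, against a median of -0.01 over all genes. In STIM1KO it was 0.11, with 4 above 0, against -0.0045 over all genes. Between genotypes it was 0.06 after sham, with 5 above 0, and 0.18 after TAC, with 5 above 0, against 0.00061 and 0.01 over all genes. Of all 7020 genes, 3320 (WT) and 3470 (STIM1KO) were above 0 for TAC against sham. Comparing the genotypes, 3514 genes were above 0 after sham and 3589 after TAC. Genes above and below 0 were thus nearly balanced, so counts of 4 or 5 of 7 members say little. Counts above 0 in the lists below have the same background. The medians of the members hide opposite differences. In the STIM1KO response Ankrd1 was lowest and Csrp3 and Fhl1 highest, and between the TAC arrays Enah and Ankrd1 were lowest and Fhl1 and Csrp3 highest.

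**Figure D3:**
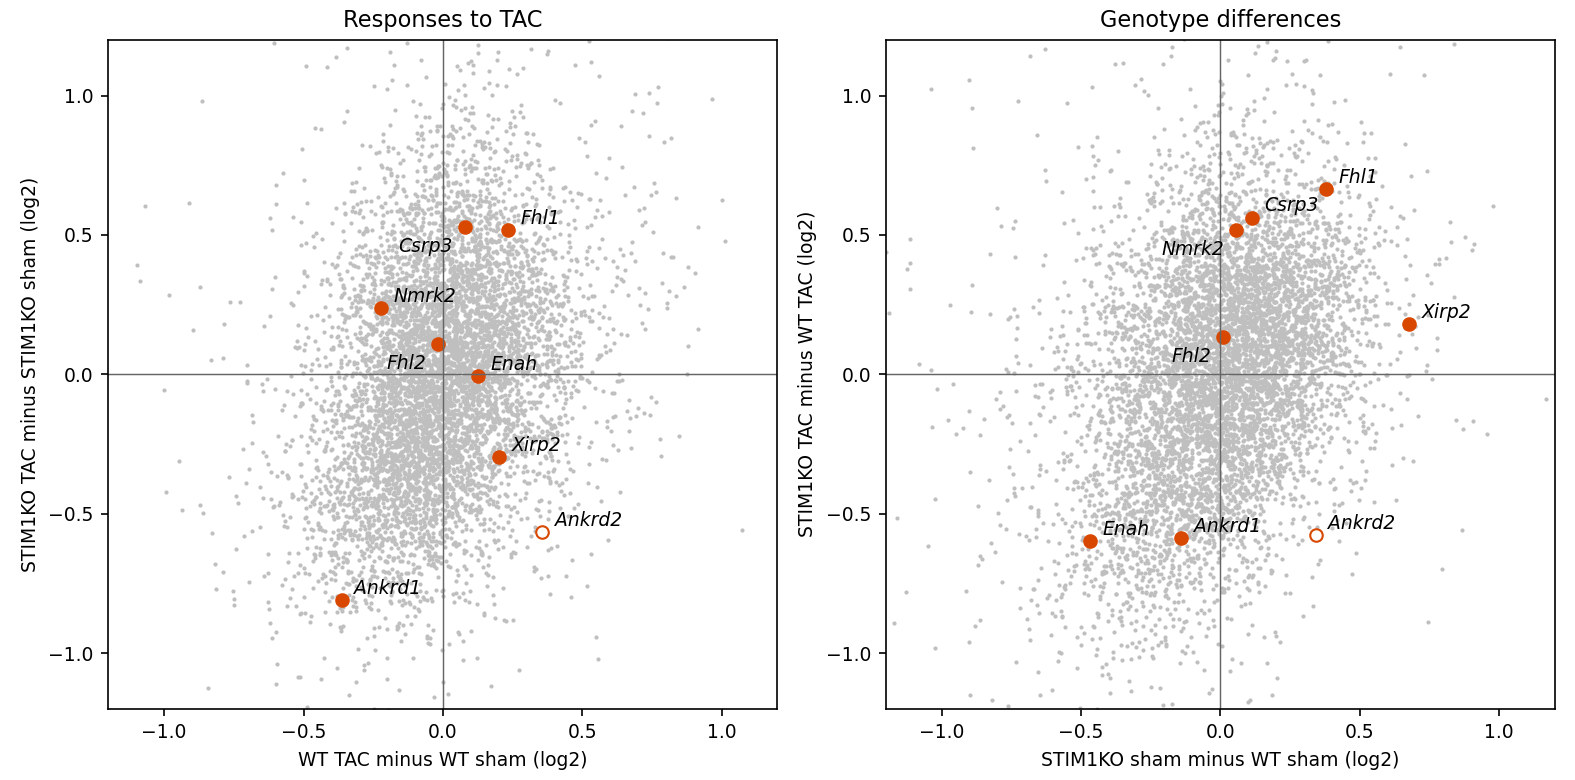
Each gene's log2 difference after TAC in WT (left, horizontal axis) against that in STIM1KO (vertical axis), and STIM1KO against WT after sham (right, horizontal axis) against the same after TAC (vertical axis); grey points are the 7020 genes and orange points the members, Ankrd2 open. The axes end at 1.2, leaving 64 genes out on the left and 68 on the right. Ankrd1 lies at the lower left of the left panel and Enah at the lower left of the right panel, while Fhl2 is near the centre of both.

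The STIM1KO response less the WT response was -0.92 for Ankrd2, below the filter, and between -0.50 and 0.46 for the other 7. It was 0.46 for Nmrk2, 0.45 for Csrp3, 0.29 for Fhl1, 0.12 for Fhl2, -0.13 for Enah, -0.45 for Ankrd1 and -0.50 for Xirp2. The value of the dim Ankrd2 was -0.67 with the offset and -0.82 with the values as deposited. None of the 7 reached 1.5-fold, a size at which 14.1% of all genes stood, with 2.15% at 2-fold. The difference between genotypes in the response of any of these genes was not tested, since each group is 1 array.

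The labelled heart to body weight ratio was highest for WT TAC, and no member of the 7 had its most extreme value there except Nmrk2, which was lowest, and Enah, which was highest, leaving aside Fhl2 with its narrow span. Of 5 hypertrophy markers, 3 were above 0 in the response of WT and 2 below. All 5 were below 0 in the STIM1KO response and between the TAC arrays, with medians of -0.46 and -0.37. Of all 7020 genes, 3544 and 3424 were below 0 there. Myh7, the slow myosin of the fetal heart, differed after TAC by 0.59 in WT and -0.59 in STIM1KO, Nppb, a natriuretic peptide, by 0.58 and -0.06, and Nppa, the atrial natriuretic peptide, by 0.24 and -0.14. Acta1, skeletal alpha-actin, was lower after TAC in both, by -1.41 and -1.52. Myh6, an adult myosin, was at -0.08 and -0.46.

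The RNA came from whole ventricle, so fewer cells of a type and less RNA per cell cannot be told apart. Of 10 cardiomyocyte markers 9 had values, none at 0, and their summed intensity was 171750 (sham) and 182611 (TAC) in WT, and 188897 (sham) and 214178 (TAC) in STIM1KO. That is the order of arrays seen for Csrp3 and Fhl1, and the STIM1KO TAC sum was 125% of WT sham. A few of the brightest probes set this sum, such as Tnnt2, troponin T, at 33602 in WT sham and 58086 in STIM1KO TAC. Normalized values follow rank, and Myl2, a myosin light chain, held the same 58086 on WT sham, WT TAC and STIM1KO sham. Without Myl2, left out after seeing the data, the sums were 110% (WT TAC), 115% (STIM1KO sham) and 141% (STIM1KO TAC) of WT sham. Myh6, the adult alpha myosin, was lowest on STIM1KO TAC at 12306, and so was Mybpc3, a myosin-binding protein, at 3727. Of the 8 cardiomyocyte markers that passed the filter, 4 were higher and 4 lower on STIM1KO TAC than on WT TAC, and their median difference was 0.08. All 8 endothelial markers had values, 5 of them passing the filter and all 5 below 0 between the TAC arrays, and their sum was lowest on STIM1KO TAC, at 57.1% of WT sham, with 77.6% in WT TAC and 65.3% in STIM1KO sham. The brightest endothelial marker, Flt1, was also left out after seeing the data. The other endothelial markers summed to 81.1% (WT TAC), 74.1% (STIM1KO sham) and 50.8% (STIM1KO TAC) of WT sham. The 8 fibroblast markers summed to 88.3% of WT sham on the WT TAC array, and to 75.9% (sham) and 58.9% (TAC) on the STIM1KO arrays. Dcn, the matrix proteoglycan decorin, carried most of that sum, at 3279 in WT sham and 1433 in STIM1KO TAC. Without it, a choice made after seeing the data, the other 7 fibroblast markers summed to 89.5% (WT TAC), 81.5% (STIM1KO sham) and 92.7% (STIM1KO TAC) of WT sham. Col1a2, a collagen I chain, was at 1.30 in the STIM1KO response, where 3 of the 7 fibroblast markers passing the filter were above 0 and the median was -0.02. No endothelial or fibroblast marker was at 0, and the part of these shifts in the member values was not tested.

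The genes around the members were read from lists of partners. Of 15 Z-disc and titin partners passing the filter, 8 were above 0 in the response of WT, 11 in that of STIM1KO, 11 between the sham arrays and 10 between the TAC arrays, with medians of 0.02, 0.17, 0.24 and 0.32. Myot, the Z-disc protein myotilin, was higher after TAC by 1.07 in WT and 2.46 in STIM1KO. Pdlim3, a LIM protein that binds alpha-actinin, differed by -0.37 and -0.91. Des, the intermediate filament desmin, was at -0.32 and 0.39, and Mypn, the titin-associated protein myopalladin, at -0.59 between the TAC arrays. The brightest probe of Ttn, titin itself, differed by 0.99 between the sham arrays and 1.37 between the TAC arrays. Its next probe gave 0.03 and -0.26, so the probes of Ttn disagree, and the third was too dim to read, with a mean log2 intensity of 2.09.

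Among 11 other LIM domain genes passing the filter, 7 were above 0 in the response of WT, 5 in that of STIM1KO, 6 between the sham arrays and 4 between the TAC arrays, and none was at 2-fold. The list's medians were 0.05, -0.11, 0.03 and -0.07. Crip2, a cysteine-rich LIM protein of heart and vessels, had 0.48 as its WT response and 0.49 between the sham arrays. It went the other way in the STIM1KO response, at -0.25, and between the TAC arrays, at -0.24. Tgfb1i1, a focal adhesion protein of smooth muscle and fibroblasts, was at -0.65 after sham and -0.86 after TAC in STIM1KO against WT. Csrp2, the relative of Csrp3 in smooth muscle and fibroblasts, differed by -0.34 in the STIM1KO response.

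Of 38 other genes named Ankrd, 32 had values and 16 passed the filter, with 6 above 0 in the response of WT and 10 in that of STIM1KO. These are ankyrin repeat genes of many functions. Their medians were -0.12 and 0.11, and 5 were above 0 between the sham arrays and 9 between the TAC arrays, with medians of -0.09 and 0.13.

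All 16 Ena/VASP, Xin and adhesion partners passed the filter and none was at 2-fold, with 6 above 0 in the response of WT, 11 in that of STIM1KO, 8 between the sham arrays and 9 between the TAC arrays. The medians were -0.05, 0.12, -0.03 and 0.08. Evl, an Ena/VASP relative of Enah, differed by -0.71 between the sham arrays. Itgb1, the integrin beta 1 chain, was at 0.46 and 0.63 in the responses of WT and STIM1KO, and Ilk, the integrin-linked pseudokinase, at -0.43 and -0.59. Cdh2, the N-cadherin of the intercalated disc, was at 0.69 and Vcl, vinculin, at 0.51 between the TAC arrays.

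Of 13 genes of NAD synthesis and use, 10 had values and 9 passed the filter, none at 2-fold. In the response of WT 5 were above 0 and in that of STIM1KO 7, with medians of 0.01 and 0.16, and 4 and 5 were above 0 between genotypes after sham and after TAC, with medians of -0.05 and 0.17. Naprt, which makes NAD from nicotinic acid, was higher after TAC by 0.42 (WT) and 0.50 (STIM1KO). Sirt3, the mitochondrial deacetylase that uses NAD, was at -0.36 and 0.22.

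The list of mechanical and muscle transcription regulators held 13 genes, among them Ccn1 and Ccn2, which are matricellular genes and not transcription factors. Of the 13, 10 had values and 6 passed the filter. Above 0 were 2 in the response of WT, 3 in that of STIM1KO, 3 between the sham arrays and 4 between the TAC arrays. Ccn1 and Ccn2 were both above 0 in the STIM1KO response and between the TAC arrays. The medians were -0.12, 0.16, -0.14 and 0.06. Tead1, a factor that binds the MCAT element, differed by -0.61 in the STIM1KO response and -0.74 between the TAC arrays, and its dimmer probe by -0.89 and -0.67. After TAC in WT the same Tead1 probes gave 0.16 and -0.22. Ccn1, a matricellular gene induced by stretch through YAP, differed after TAC by -0.49 (WT) and 0.62 (STIM1KO), and was at 1.13 between the TAC arrays. Srf, the factor of the CArG box, was at 0.32 between the sham arrays, and Wwtr1, the YAP relative TAZ, at -0.76. Gata4, below the filter and singled out after its values were seen, had a WT intensity of 21.8 after sham and 25.5 after TAC, and a STIM1KO intensity of 20.1 and 8.82. The other listed genes below the filter, Mrtfa, Myocd and Yap1, were higher in the STIM1KO response, by 0.91, 0.60 and 0.11. They were dim, with STIM1KO intensities of 7.02, 6.70 and 13.8 after sham and 13.2, 10.1 and 14.8 after TAC. Between the TAC arrays they were at 0.62, 1.07 and -0.21, with WT TAC intensities of 8.61, 4.84 and 17.2. Whether any of these genes acts on the members was not tested.

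**Figure D4:**
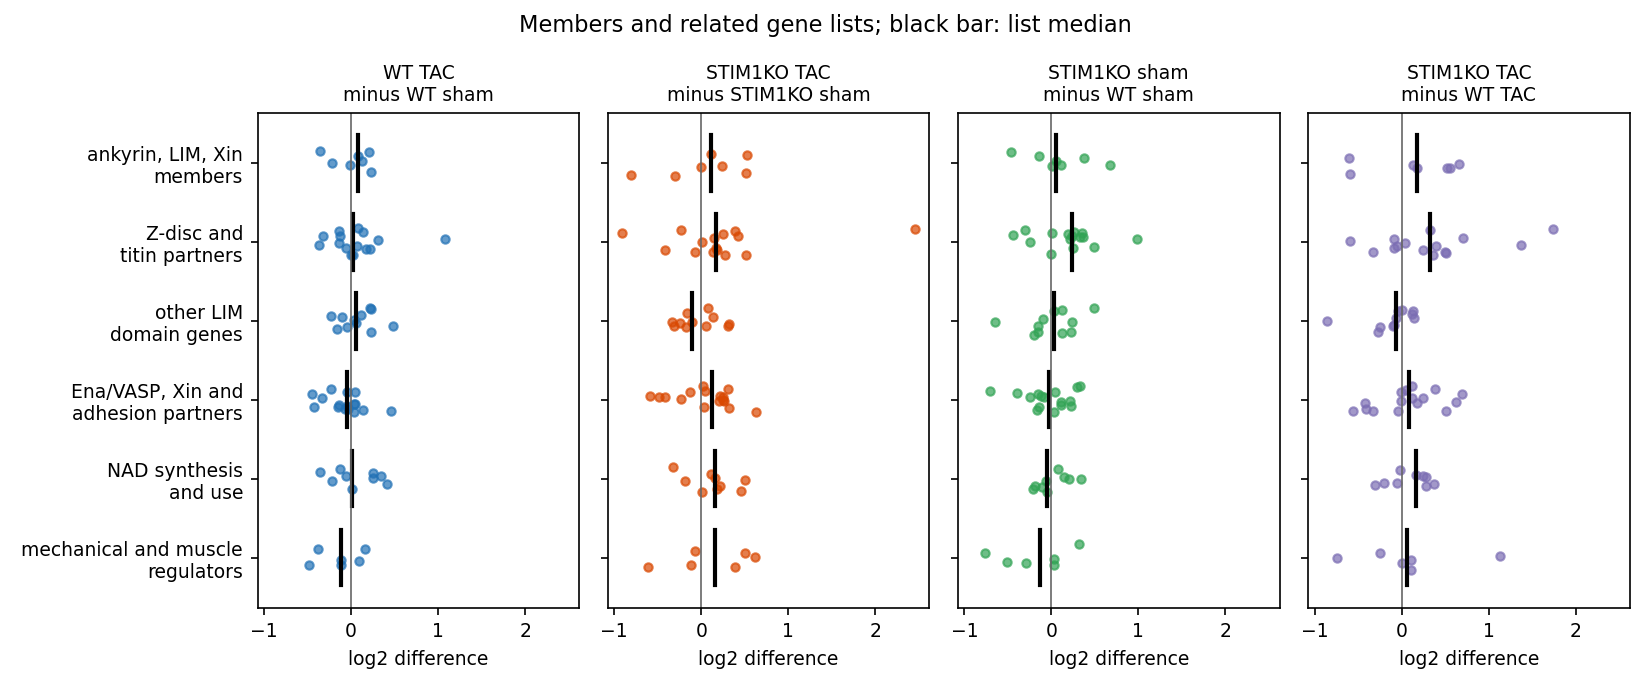
Log2 differences between arrays (horizontal axis) of the genes passing the filter in each list, 1 point per gene with vertical jitter, and the list median as a black bar. The Z-disc and titin partners have the highest median between the TAC arrays, 0.32, and Myot is the point at 2.46 in the STIM1KO response.

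Likeness of pattern was measured as the Euclidean distance between 4 log2 values, each profile centred on its own mean. No member spanned 1 log2 unit over the arrays, the limit set for this step, so the limit was lowered to 0.5 after the values were seen, which took in 6 members passing the filter. The distances rest on 4 arrays and are only a description. Nearest to Ankrd1 were Bicc1 (0.03), Ggct (0.05) and Emc7 (0.06). Nearest to Csrp3 were Pcbd2 (0.02), Epb42 (0.03) and Erg28 (0.03), and nearest to Fhl1 were Ddx41 (0.04), Eef1a2 (0.05) and Olfm4 (0.06). Xirp2 had Tnfaip2 (0.09), Eif4b (0.10) and Alas1 (0.12), Enah had Csk (0.03), Ift122 (0.05) and Mfap5 (0.06), and Nmrk2 had L3mbtl1 (0.02), Pptc7 (0.03) and Cacng8 (0.04). None of these neighbours is a member. Among the members themselves, Csrp3 and Fhl1 were the closest pair, at 0.21, with 450 genes nearer to Csrp3 than Fhl1 was. Ankrd1 and Fhl1 were the farthest pair, at 1.36, with 6749 of the 7020 genes nearer to Ankrd1.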

How the data were processed

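For each probe the authors deposited a linear intensity on each of 4 single-channel arrays, scaled so that the array medians nearly coincide. Per the labels' protocols, amplified amino allyl RNA was labelled with Cy5; no label names the scanner, the background correction or the reason for empty cells. Of 23473 probes, 19607 had values on all 4 arrays and 16631 had 1 gene symbol, none several; 6842 were unnamed. Outdated symbols (3947) were updated through a GRCm38.p6 gene table, used for names only. Log2 values were quantile normalized, because array medians over shared probes spread over 0.101, and the brightest probe stood for a gene. The brighter genes were kept, down to the median gene, whose mean log2 value was 4.87 (intensity 29.3).

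Arrays were grouped by title. With 1 array per group, a difference between 2 arrays and the difference of responses have no residual spread to be tested against. An additive model of genotype and operation was not fitted. The number of arrays limits the precision. Members, lists and processing were chosen with earlier results of these data known. All 10 members are named. From each list up to 4 genes with the largest differences per comparison could be named. Gata4, Mrtfa, Myocd, Yap1 and Myl2 are named beyond this rule. Motifs were searched on both strands in Python 3.11.15 with pandas 2.3.3. The steps were tested on simulated data. Alternatives were median centring, values as deposited, an offset, the mean over probes, other filters and other fold thresholds.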

Additional observations from a re-analysis of the deposited data

Results flagged for a closer look

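Members whose arrays moved in opposite directions in the genotypes, or after the operations, are given here; with 1 array per group the difference was not tested. Ankrd2 differed by 0.36 between TAC and sham in WT and by -0.56 in STIM1KO, and by 0.34 between genotypes after sham and -0.58 after TAC, at intensities below the filter. Xirp2 was at 0.20 after TAC in WT and -0.30 in STIM1KO. Nmrk2 was at -0.22 and 0.24. Fhl2 was at -0.0161 and 0.11, and Enah at 0.13 and -0.0062, where the value near 0 changes sign with the scaling.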

How the results depend on the processing

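No member was at 2-fold in the 4 comparisons under quantile normalization, median centring, values as deposited, the offset or the mean over probes (0 of 32 differences). Of 160 member values under these alternatives, 151 moved by at most 0.1 on the log2 scale. Each measured member had 1 probe, so the mean over probes could not move it. The values under that alternative, included in both counts, were therefore fixed in advance. In the 4 comparisons 2 of 32 changed sign, Fhl2 in the WT response and Enah in the STIM1KO response. At 1.5-fold in place of 2-fold, 1 member was past the threshold in the STIM1KO response, 1 between the sham arrays and 3 between the TAC arrays. With scaling varied, a choice made after seeing the data, the last count was 2 with median centring, with the values as deposited and with the offset. It was 2 in the STIM1KO response with the values as deposited, and 1 in the difference of responses with median centring. The median of members in the difference of responses, 0.12, was -0.0228 with median centring, as was Fhl2's own value, and -0.0040 with no filter, which adds Ankrd2. The cause was not tested beyond these constructions. The number of all genes at 2-fold depended on the filter: 22 in the WT response became 292 unfiltered and 7 above the 75th percentile of gene means, and 130 in the STIM1KO response became 816 and 52. Between the sham arrays 39 became 375 and 20, between the TAC arrays 138 became 756 and 46, and in the difference of responses 151 became 1206 and 61. Of those 138, 62 were higher, against 45 of 143 with median centring and 46 against 97 lower as deposited; of the 130, 88 were higher, against 70 of 126. Median centring moved the median of all genes in the difference of responses to -0.10. No paired analysis was possible because each group is 1 array.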
